A study of Homo sapiens with 13 samples.

Results

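Ribosome footprints (RF) of MDA-MB-231 cells at passage 4 were compared with those of the same cell line at passage 3. MDA-MB-231 cells derive from a human breast tumour, have mesenchymal features and lack the oestrogen receptor. Cells of each passage were given DMSO, the vehicle, or 25 nM Silvestrol, an inhibitor of the RNA helicase eIF4A, for 2 h, and 1 RF library was made per treatment and passage. These 4 libraries are part of 13 in the series, and the rest of the Silvestrol experiment was done at passage 3 (RF of untreated cells and of cells given DMSO or Silvestrol for 1 h, and mRNA at 2 h). In 1 label field the passage 3 Silvestrol library is listed at 1 h, whereas its title and description give 2 h, and it was taken as 2 h. The INK128 experiment of the series, also at passage 3, was normalised in a table of its own and was not compared here, so passage 3 stands below for the Silvestrol experiment.

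Genes were compared by their RPKM, the reads per kilobase of counted transcript scaled to the depth of the library, in passage 4 over passage 3, on a log2 scale. A gene was compared if it had at least 100 reads in both DMSO libraries and if its counted length (reads over RPKM, scaled to the median of the library) differed by no more than 1.5 times between them. Of 24875 gene symbols, 7542 had enough reads, 98 of these were dropped for their counted length, and 7444 were compared. At the edges of the rule the counted lengths differed by 1.4976 times just inside and by 1.5005 times just outside. Of the genes compared, 179 had fewer than 10 reads above the minimum in the passage 4 DMSO library, and 204 other genes had 90 to 99 reads there and fell short. For 7238 of the 7444 genes the ratio could also be taken in Silvestrol (at least 20 reads in both libraries).

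The libraries differed in depth. They held 26057382 (DMSO) and 11959641 (Silvestrol) counted reads at passage 3, against 6366207 and 2621440 at passage 4. A gene that was lower in passage 4 thus needed more reads at passage 3 to be compared. A gene with few reads at passage 3 was compared only if it was higher in passage 4, so the minimum favours higher over lower genes. Each passage was 1 culture with 1 library per treatment, so p-values from these libraries rest on how unequal the passage shift was in DMSO and in Silvestrol. They do not measure the spread between cultures. Passage, culture, library preparation and depth cannot be told apart here, and no mRNA was sequenced at passage 4, so a different mRNA level and a different translation of each mRNA cannot be told apart either. Nor can fewer cells of one kind be told apart from less RNA per cell. Markers of the line were present in all 4 libraries (summed RPKM of 16 mesenchymal markers from 17452 to 22469), though SPARC had at most 21 reads. Of 15 luminal markers, with a summed RPKM of 125 to 205, ESR1 had 0 reads in each library and CDH1 had at most 4. Other luminal markers were present, with 1528 reads of XBP1, 842 of KRT18, 430 of ERBB2 and 385 of GATA3 in the passage 3 DMSO library. Summed RPKM was 2.05 to 5.46 for 10 fibroblast markers and 26.7 to 43.6 for 11 leukocyte markers, most of the latter from the lysosomal protein CD68. All 4 marker sums, that of 15 luminal markers included, were higher at passage 4 in both treatments, but single markers moved both ways. S100A4 rose from 2212 to 5178 RPKM in DMSO while VIM had 6454 and 4789, and KRT8 had 130 reads at passage 3 and 0 at passage 4. Whether KRT8 was counted under another transcript record at passage 4 was not tested. The part of these markers in the results was not tested.

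Proteins of the endoplasmic reticulum (ER), Golgi apparatus, lysosome and cell surface, and proteins that are secreted, are mostly made by ribosomes bound to the ER membrane. A hydrophobic stretch in the growing chain, which is a signal peptide or a transmembrane segment, brings the ribosome there and is passed into the translocon. Tail-anchored proteins carry their hydrophobic stretch at the C-terminal end and are inserted after synthesis is complete, and most mitochondrial proteins, the SLC25 carriers among them, are made in the cytosol.

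The sequences shown are the 10 most hydrophobic codons in a row within the most hydrophobic window of 19 codons of each coding sequence, because such a stretch was shared by most of the genes that were higher in passage 4. They are from GENCODE version 44 lifted to GRCh37, 5′ to 3′ on the strand of the gene, and capitals mark codons with T as the second base, which encode Phe, Leu, Ile, Met or Val. For 6 genes that were higher in passage 4 they are:
CYP51A1 (chr7:91763556-91763585, minus strand, codons 32 to 41): CTCTTGtccATGCTGCTGATCgcctgcgcc
CRISPLD2 (chr16:84872123-84872152, plus strand, codons 8 to 17): GTCATCcccTTGgggCTGCTGTTCCTGGTC
TSPAN9 (chr12:3388164-3388193, plus strand, codons 88 to 97): ATCGTCCTGTTGGTCATCCTCCTAgcagag
CTSD (chr11:1785045-1785074, minus strand, codons 6 to 15): CTTCTGccgCTCgccCTCtgcCTGCTGgct
B2M (chr15:45003754-45003783, plus strand, codons 4 to 13): tccGTGgccTTAgctGTGCTCgcgCTACTC
CD63 (chr12:56120998-56121027, minus strand, codons 55 to 64): GTGGTCATCATCgcaGTGggtGTCTTCCTC
For 3 tail-anchored proteins whose footprints did not differ 2-fold, which carry as many capitals but close to the end of the coding sequence, they are:
SEC61B (chr9:101992632-101992661, plus strand, codons 73 to 82 of 96): GTATTGGTTATGagtCTTCTGTTCATCgct
STX5 (chr11:62574956-62574985, minus strand, codons 342 to 351 of 355): ATCCTCATTGTCTTCTTCATCATCTTTGTG
STX8 (chr17:9153922-9153951, minus strand, codons 219 to 228 of 236): GTGATTTTACTGCTGCTTGTGgctATCGTG
For 3 genes that were lower in passage 4 and whose coding sequence holds no stretch past the cutoff used below, they are:
KRT81 (chr12:52680231-52680260, minus strand, codons 433 to 442): ggcgggGTCGTGtgcggggacCTCtgcGTG
FOXA2 (chr20:22563556-22563585, minus strand, codons 99 to 108): tcggccggggcggccggcGTGgcgggcATG
DUSP1 (chr5:172197623-172197652, minus strand, codons 102 to 111): CTGgccCTGgcggccggcgcgCTCtgccgc

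In DMSO, 383 of the 7444 genes (5.15%) were at least 2-fold higher in passage 4 and 23 (0.309%) were at least 2-fold lower. The median log2 ratio over all genes was −0.02 with an SD of 0.45, where counting error alone would give 0.0917. The 3 control RF libraries of passage 3 in the Silvestrol experiment (untreated, DMSO for 1 h and DMSO for 2 h) were closer to each other, with an SD of 0.15 to 0.20 between any pair of them and with 4 to 9 genes at least 2-fold apart. All 383 higher genes lay above each of these 3 controls, 1 of which the ratio used, 166 of them by at least 2-fold, and all 23 lower genes lay below each of them, 7 by at least 2-fold.

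The shift recurred in the Silvestrol pair, which shares no library with the DMSO pair but shares the culture of each passage. Of the 367 higher genes measured there, 360 were higher again, 312 by at least 1.5-fold and 94 by at least 2-fold, and their median log2 ratio was 0.83 against 1.19 for the 383 in DMSO. Of the 22 lower genes, 21 were lower again, 11 by at least 1.5-fold and 5 by at least 2-fold, and their median was −0.56 against −1.11. Read from the other side, 136 genes were at least 2-fold higher in passage 4 in Silvestrol, of which 135 had the same sign in DMSO and 94 were 2-fold higher there too. Across the 7238 genes the ratios of the pairs had a Pearson's r of 0.746 and a Spearman's rho of 0.661, as a description of points that share cultures and libraries.

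**Figure D1:**
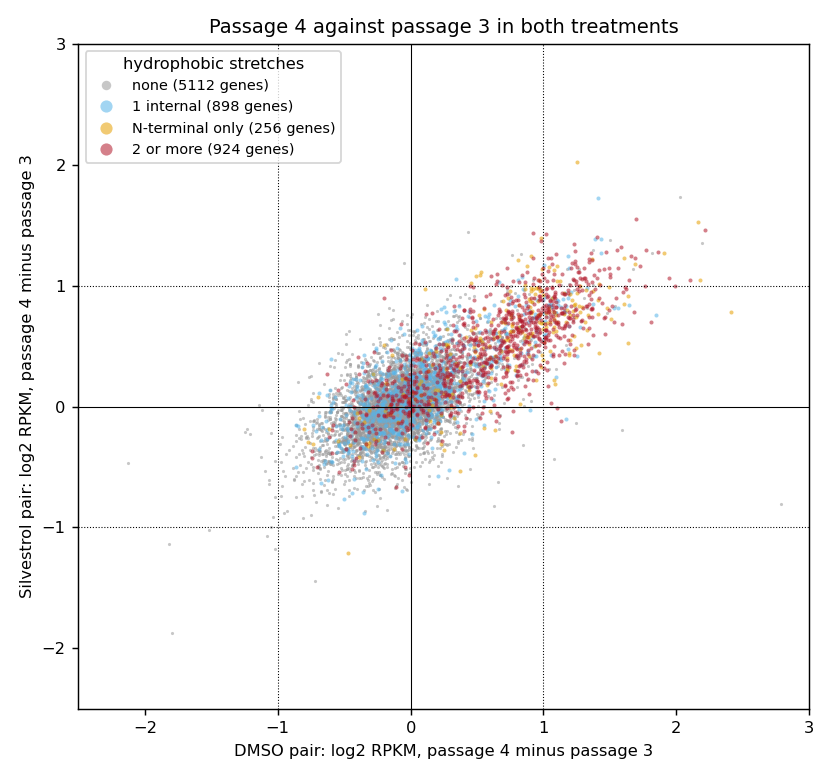
Each point is 1 of 7238 genes, with the log2 ratio of RPKM in passage 4 over passage 3 in DMSO on the horizontal axis and in Silvestrol on the vertical axis. Colours give the class of hydrophobic stretch in the coding sequence and dotted lines mark 2-fold. The 94 genes past both dotted lines at the upper right are mostly genes with a stretch, and the 5 at the lower left have none.

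A model of the read counts of all 4 libraries (edgeR, treatment as a block, 12372 genes tested, Benjamini-Hochberg adjusted p under 0.05) called 1654 genes higher in passage 4 (13.4%) and 1306 lower (10.6%). Among these calls, 47 of those lower and 1 of those higher are genes with at least 100 reads in 1 DMSO library and 0 in the other, which were not compared by RPKM, and whether their reads were counted under another transcript record in the other passage was not tested. Of the genes compared, 1224 (16.4%) were called higher and 940 (12.6%) lower. All 383 genes 2-fold higher in DMSO were called, and 22 of the 23 lower genes were, the exception being the histone gene HIST1H2BO, but the model uses the DMSO libraries by which these genes were chosen, so this is no independent support. The model has 1 residual degree of freedom per gene, and 36 to 98 genes were called higher when any 1 of the 4 libraries was left out and treatment was no longer a term. Its log2 values had a median difference of −0.0889 from the mean of the DMSO and Silvestrol log2 RPKM ratios of each gene. All counts of genes called higher or lower are from this model.

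Most of the 10 genes described here, which were among those with the highest ratios of the genes 2-fold higher in both pairs, encode membrane or secreted proteins. Some of them were compared only because they were higher at passage 4, such as CYP51A1, CRISPLD2 and SPPL2A (107, 116 and 127 reads in the passage 3 DMSO library). CYP51A1, the lanosterol demethylase of cholesterol synthesis, had 4.28 RPKM at passage 3 and 19.9 at passage 4 in DMSO, and 5.70 and 15.7 in Silvestrol. Its log2 ratios were 2.22 (95% counting interval 1.82 to 2.61) and 1.46 (0.90 to 2.02), with an edgeR log2 change of 1.99, SE 0.24 and adjusted p = 6.2e-15. The other passage 3 controls had 4.06 and 4.87, so none of these 3 controls came near passage 4, but the gene rested on 107 and 113 reads in DMSO and on 62 and 51 in Silvestrol. Its counted length was 47.7% of the coding length. Here and below such percentages are scaled so that the median gene has 100%.

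KIAA1199, a secreted and ER protein of hyaluronan breakdown, had 4.19 and 19.2 RPKM in DMSO and 4.37 and 11.2 in Silvestrol. CLU, the secreted chaperone clusterin, had 11.8 and 48.0 in DMSO and 11.4 and 37.9 in Silvestrol (edgeR log2 change 1.81, SE 0.14, adjusted p = 6.2e-34). For both, each passage 4 library stood above all 5 passage 3 RF libraries of the Silvestrol experiment, among which KIAA1199 reached 4.63 and CLU reached 13.8.

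TSPAN9, a tetraspanin of the cell surface, had 16.2 and 62.3 RPKM in DMSO and 10.2 and 21.3 in Silvestrol. Its level was lower with Silvestrol than with DMSO in both passages, and both passage 4 libraries lay above the highest of the 5 passage 3 libraries, which had 19.9.

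The others were CRISPLD2 (log2 ratio in DMSO 2.18 and in Silvestrol 1.05) and OLFML2A (2.16 and 1.53), which are secreted, LPCAT2 (2.10 and 1.05), an acyltransferase of the ER, SPPL2A (1.86 and 1.28), an intramembrane protease, and ENDOD1 (1.77 and 1.29). BTF3, which is neither, is a cytosolic factor bound to the ribosome (1.82 and 1.27), for which the counted length was 28% of the coding length. RPKM of such genes rests on a short counted stretch. On the scale given above, where the median gene has 100%, 385 of the genes compared had a counted length under 55% of the coding length.

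**Figure D2:**
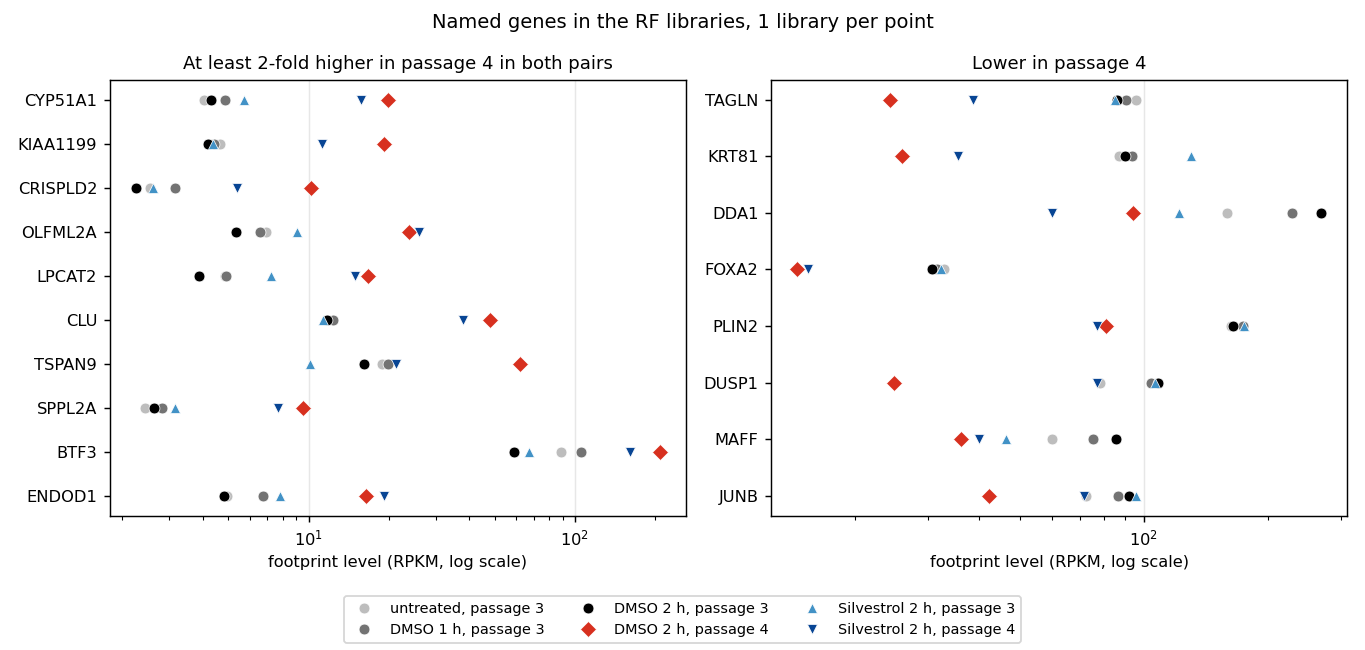
RPKM on a log axis, with 1 point per RF library (untreated, DMSO 1 h and 2 h, and Silvestrol 2 h of passage 3, and DMSO and Silvestrol 2 h of passage 4). The 10 genes on the left and the upper 5 on the right were 2-fold apart in both pairs, and in each of them both passage 4 libraries lie on the same side of all passage 3 libraries drawn, whereas DUSP1, MAFF and JUNB were 2-fold lower in DMSO alone.

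The 5 genes lower by at least 2-fold in both pairs have no shared role. KRT81, a hair keratin, had 90.2 RPKM at passage 3 and 26.0 at passage 4 in DMSO, and 130 and 35.6 in Silvestrol (edgeR log2 change −1.56, SE 0.13, adjusted p = 9.7e-33). TAGLN, an actin-binding protein, had 85.9 and 24.4 in DMSO and 85.0 and 38.6 in Silvestrol (edgeR log2 change −1.57, SE 0.16, adjusted p = 2.4e-21). The other passage 3 libraries lay between 78.1 and 95.8 for TAGLN and between 87.0 and 93.6 for KRT81, far from either passage 4 library.

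FOXA2, a transcription factor of endodermal lineages, had 30.7 and 14.5 RPKM in DMSO and 32.2 and 15.4 in Silvestrol (edgeR log2 change −1.07, adjusted p = 2.2e-10). PLIN2, a coat protein of lipid droplets, had 164 and 81.0 in DMSO and 175 and 77.2 in Silvestrol. The edgeR log2 change of PLIN2, from reads without regard to counted length, was −0.65 (SE 0.11, adjusted p = 1.5e-07), smaller than its RPKM ratios of −1.02 and −1.18, and its counted length was 54.5% of the coding length. DDA1, a component of a ubiquitin ligase, had 269 and 94.0 in DMSO and 122 and 60.0 in Silvestrol, with a counted length of 38% of the coding length. Its log2 ratios were −1.52 and −1.02. A second symbol among the genes lower in DMSO, PCIA1, had nearly the same reads (1149 and 126 in DMSO, against 1070 and 119 for DDA1). For PCIA1 the log2 ratios were −1.38 and −0.60, so it was not 2-fold lower in Silvestrol. Whether both count the same gene was not tested. For FOXA2 and PLIN2 the 5 passage 3 libraries were close together (27.1 to 32.9 and 158 to 175), whereas for DDA1 they ran from 113 to 269.

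The genes that were higher in passage 4 shared a feature of the encoded protein that the ratio did not use. The coding sequences of 7394 genes were searched for windows of 19 codons with a mean Kyte-Doolittle hydropathy of at least 1.6. This is the usual mark of a transmembrane segment, which some signal peptides reach and others miss. Of these genes 28.75% had such a stretch, against 87.63% of 380 genes at least 2-fold higher in DMSO, 87.1% of 93 genes higher in both pairs, and 0 of 22 lower genes. The same held for the edgeR calls, with a stretch in 71.55% of 1216 genes called higher and 14.47% of 933 genes called lower.

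The number and place of the stretches also went with the shift. In 5268 genes with none, the median log2 ratio was −0.08 in DMSO and 0.01 in Silvestrol, and 6.57% were called higher. In 923 genes with 1 stretch past the first 40 codons, the medians were 0.02 and 0.12, and 17.7% were called higher. In 264 genes with a stretch within the first 40 codons only, where signal peptides lie, the medians were 0.76 and 0.57, and 66.3% were called higher.

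In 939 genes with 2 or more stretches, as in multipass membrane proteins, the medians were 0.62 and 0.46, and 56.7% were called higher. Genes with a stretch at the start or with several stretches were thus far from the others in both pairs, and genes with 1 internal stretch lay close to genes with none. A smaller difference with the same order of classes was present within passage 3 for DMSO 1 h over the same DMSO 2 h library, with medians of 0.005 (none), 0.04 (1 internal), 0.09 (2 or more) and 0.14 (start only). For untreated over DMSO 2 h the medians lay between 0.04 and 0.08.

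**Figure D3:**
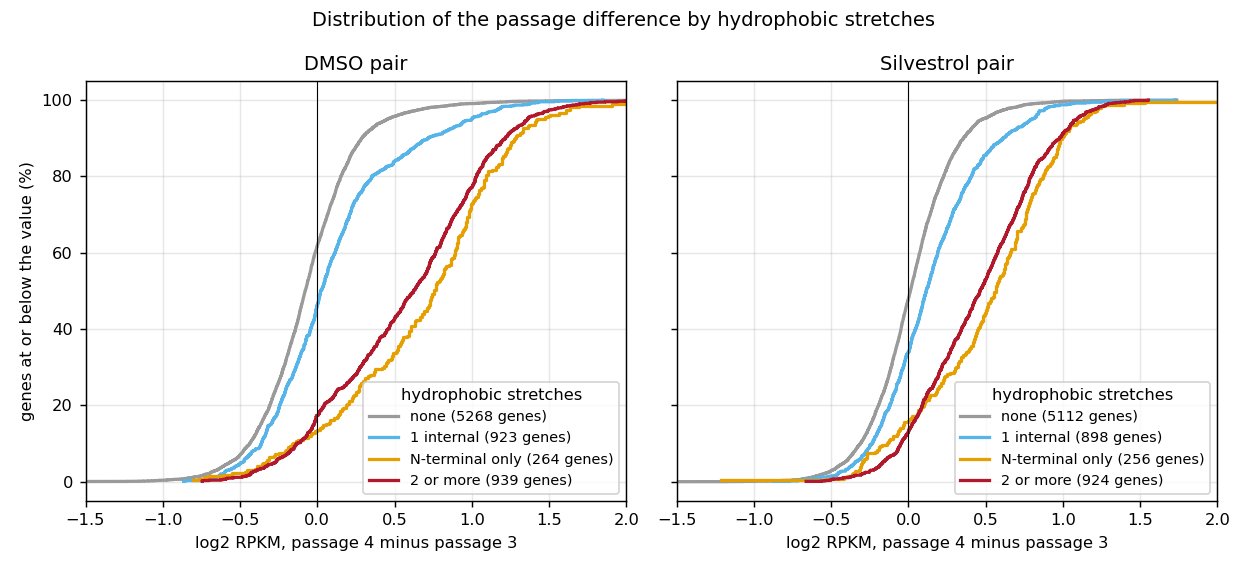
Log2 ratio of RPKM in passage 4 over passage 3 in DMSO and in Silvestrol for the 4 classes of hydrophobic stretch, drawn as cumulative curves (percent of genes at or below each ratio). Genes with a stretch within the first 40 codons only and genes with 2 or more stretches have medians of 0.76 and 0.62 in DMSO, whereas the other classes have medians of −0.08 and 0.02.

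The GC content of the coding sequence moved with the ratio as well. Across genes its Spearman's rho with the log2 ratio was −0.357 in DMSO and −0.215 in Silvestrol, and the median GC of the 22 lower genes was 62.5% against 51.0% over all genes. The genes were split into 3 bins of GC content, and the difference between classes was present in each. Genes with a stretch at the start or with several had medians of 0.79, 0.72 and 0.50 in DMSO from low to high GC, and genes with none had 0.06, −0.07 and −0.26. Coding length had a rho of 0.01 in DMSO and 0.18 in Silvestrol.

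Of the 380 higher genes with a coding sequence, 47 had no stretch at the cutoff. Many of these are secreted or lysosomal proteins by what is known of them, among them KIAA1199, CLU, EDIL3, LIPA, CTSZ, CTSB, TIMP3, NPC2, HEXA and PLAU, in which no window reached the cutoff. In 13 others the counted length was under 55% of the coding length, such as GAPDH, YWHAE, HSPA8 and the ribosomal protein genes RPL31, RPL35A and RPS21. For RPL31 the log2 ratio was 1.59 in DMSO and −0.20 in Silvestrol, so its shift did not recur.

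Families of genes, grouped by symbol after the values were seen and given here as counts without a test, are described by the place where their proteins are made or act. In families and lists a median in Silvestrol is over the genes measured in both pairs, and where these are fewer than the genes compared their number is given. Over all genes compared, 16.4% were called higher and 12.6% lower. Translocon and signal peptidase genes, which form the machinery of import into the ER, had median log2 ratios of 0.96 in DMSO and 0.55 in Silvestrol over 15 genes, and 12 were called higher and 0 lower. SSR1, a subunit of the translocon-associated complex, had 111 and 263 RPKM in DMSO and 122 and 215 in Silvestrol. TRAM1, a translocating-chain protein, had 32.5 and 75.8 in DMSO and 25.0 and 42.3 in Silvestrol. The tail-anchored SEC61G had a log2 ratio of 0.11 in DMSO and was not called. SPCS1, a signal peptidase subunit with 2 hydrophobic stretches and thus in the same class as TRAM1, had −0.07 and was not called either. SEC61B, a tail-anchored subunit of the translocon, was outside the symbol pattern of this family and was not called.

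The dolichol pathway and the oligosaccharyltransferase, which build N-glycans and attach them in the ER, had medians of 0.97 and 0.66 over 23 genes, with 16 called higher and 0 lower. STT3A, a catalytic subunit of the transferase, had 47.9 and 114 RPKM in DMSO and 69.3 and 143 in Silvestrol. DPM2 and ALG14 had log2 ratios of −0.02 and −0.01 in DMSO. Glycosyltransferases of the Golgi had medians of 1.00 and 0.66 over 26 genes (25 in Silvestrol), with 21 called higher and 0 lower, and the largest ratio was that of GALNT3, which starts O-glycans (log2 ratio 1.61 in DMSO and 1.23 in Silvestrol). GPI anchor synthesis had medians of 0.77 and 0.41 over 10 genes, with 5 called higher and 0 lower.

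Cargo receptors and p24 proteins, which carry proteins between ER and Golgi, had medians of 0.86 and 0.55 over 19 genes, with 15 called higher and 0 lower. KDELR1, a receptor that returns ER proteins, had 175 and 423 RPKM in DMSO and 211 and 456 in Silvestrol. In contrast, the COPI and COPII coats of the same vesicles, which are cytosolic, had medians of 0.12 and 0.06 over 18 genes, with 1 called higher and 1 lower. SNARE proteins, most of them tail-anchored, had medians of −0.02 and 0.02 over 31 genes (30 in Silvestrol), with 2 called higher and 0 lower, although 26 of the 31 have a hydrophobic stretch. The log2 ratios in DMSO and Silvestrol of the 3 tail-anchored genes whose sequences are shown were −0.26 and −0.30 for SEC61B, −0.21 and 0.02 for STX5, and −0.02 and −0.06 for STX8. Other SNARE genes lay higher, such as VAMP8 (0.41 and 0.27), which was not called, and STX3 (0.83 and 0.45), which was called higher.

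Carriers of small molecules sit either in the membranes reached from the ER or in those of mitochondria. The SLC carriers other than SLC25 had medians of 0.89 and 0.69 over 74 genes (73 in Silvestrol), all with a hydrophobic stretch, with 58 called higher and 1 lower. These leave out 5 genes named after a carrier, such as SLC9A3R1, which have no stretch, and with them the medians were 0.87 and 0.63 over 79 genes (78 in Silvestrol), with 58 called higher and 2 lower. SLC7A5, the light chain of a transporter of large neutral amino acids, had 58.8 and 161 RPKM in DMSO and 72.8 and 160 in Silvestrol (edgeR adjusted p = 1.9e-36). SLC39A4, a zinc importer, was called lower (log2 ratio −0.74 and −0.43), as was SLCO4A1, an organic anion transporter whose symbol is outside the pattern (−0.42 and −0.21). The SLC25 carriers, most of which sit in the inner mitochondrial membrane, had medians of −0.06 and 0.02 over 22 genes, with 1 called higher and 2 lower. Of these 22 genes, 13 have a hydrophobic stretch by the same measure.

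The proton pump of the lysosome is split between the membrane and the cytosol. Genes of its membrane sector had medians of 0.50 and 0.29 over 8 genes, with 4 called higher, and genes of its cytosolic sector had medians of 0.15 and −0.01 over 7 genes (6 in Silvestrol), with 1 called higher. ATP6AP2, an accessory protein of the membrane sector, had 26.7 and 67.2 RPKM in DMSO and 37.8 and 67.3 in Silvestrol. ATP6V0C, a multipass subunit of the membrane sector, had log2 ratios of −0.41 and −0.42, but its edgeR log2 change was 0.10 and was not called, with 41.1% of its coding length counted.

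At the cell surface, tetraspanins had medians of 1.03 and 0.70 over 12 genes, with 11 called higher and 0 lower. CD63 had 208 and 594 RPKM in DMSO and 142 and 253 in Silvestrol. Receptor tyrosine kinases had medians of 0.60 and 0.71 over 10 genes, with 9 called higher, and semaphorins, plexins and neuropilins, which act in cell guidance, had medians of 0.48 and 0.79 over 9 genes, with 6 called higher. PLXNA1 had 4.84 and 14.2 RPKM in DMSO and 5.01 and 12.3 in Silvestrol. Of 74 TMEM genes, which are named only for a predicted membrane segment, 39 were called higher and 3 lower.

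Other families had medians between −0.27 and −0.02 in DMSO: mitochondrial import proteins, peroxins, RAB GTPases, nucleoporins, kinesins, zinc finger proteins, initiation factors and aminoacyl-tRNA synthetases. In Silvestrol their medians lay between −0.12 (RAB GTPases) and 0.13 (zinc finger proteins, 92 genes), with nucleoporins at 0.10. Over these 8 families the genes called higher were 0 to 3 in each and those called lower 0 to 9. Called lower were 9 of 38 initiation factors, 4 of 14 mitochondrial import proteins, 4 of 25 kinesins, 3 of 17 aminoacyl-tRNA synthetases and 6 of 93 zinc finger proteins. Over all genes compared the share called lower was 12.6%. EIF4A1, the target of Silvestrol, was called higher and had the largest DMSO ratio of the initiation factors, with 133 and 249 RPKM in DMSO and 235 and 243 in Silvestrol, with 12.8% of the coding length counted, and its log2 ratio was 0.91 in DMSO and 0.04 in Silvestrol.

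**Figure D4:**
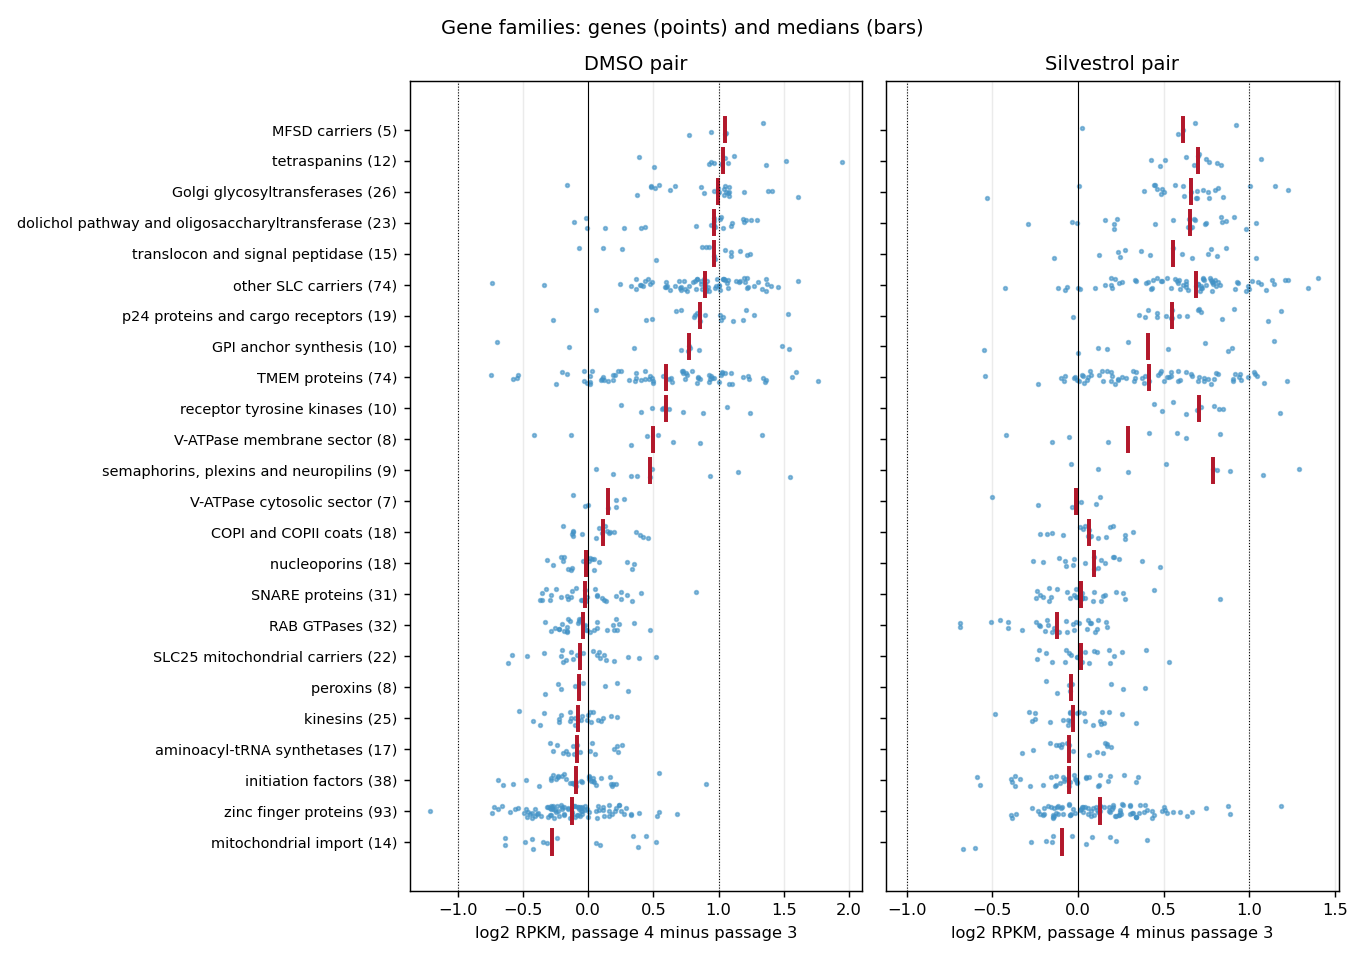
Log2 ratio of RPKM in passage 4 over passage 3, in DMSO and in Silvestrol, for each gene (points) of the 24 gene families, with the median of each family as a bar and the number of genes in parentheses. Families of the ER, Golgi and cell surface have medians from 0.48 to 1.05 in DMSO, whereas SNARE proteins, SLC25 carriers and families of the cytosol, mitochondria and nucleus have medians from −0.27 to 0.15.

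Lists of genes by pathway were also described by their counts, beside 16.4% called higher and 12.6% called lower over all genes compared. Of 23 genes of cholesterol synthesis and its control, 19 were called higher and 0 lower, with medians of 0.90 in DMSO and 0.54 in Silvestrol, and 11 were at least 2-fold higher in DMSO. SC4MOL, a sterol demethylase of the ER, had log2 ratios of 1.68 and 0.78, DHCR7, which makes cholesterol from its last precursor, had 1.47 and 1.27, and INSIG1, which holds the pathway's regulators in the ER, had 1.34 and 0.74. HMGCS1, a cytosolic enzyme of the pathway, had 75.9 and 184 RPKM in DMSO and 139 and 228 in Silvestrol.

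The 16 genes of this list with a hydrophobic stretch had medians of 1.32 and 0.79. The 7 without one had medians of 0.69 and 0.41, and 5 of them were called higher. FDPS had log2 ratios of 0.90 and 0.41, while MVD had 0.12 and 0.51 and PMVK had 0.08 and −0.25. Of 11 genes of fatty acid synthesis and desaturation, 9 were called higher and 0 lower, among them the desaturases FADS2 (1.35 and 0.81) and SCD (1.26 and 0.76) and the acyl-CoA synthetase ACSL3 (1.17 and 0.70).

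Of 22 ER chaperones and folding enzymes, 20 were called higher and 0 lower, with medians of 0.97 and 0.66 (21 genes in Silvestrol). HSP90B1, the ER form of HSP90, had log2 ratios of 1.48 and 0.82, and CANX, the lectin chaperone calnexin, had 1.16 and 0.78. HSPA5, the chaperone BiP, had 1.16 and 0.79, with a counted length of 19% of the coding length. SYVN1 and SEL1L, which form the ubiquitin ligase of ER-associated degradation, had 1.37 and 1.03 and 1.20 and 0.52.

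Of 30 lysosomal genes, 25 were called higher and 0 lower, with medians of 0.93 and 0.76. The 18 with a hydrophobic stretch had a median of 0.89 in DMSO and the 12 without one had 0.98, and 9 of these 12 were called higher. CTSD, an aspartic protease, had 257 and 829 RPKM in DMSO and 564 and 1280 in Silvestrol (edgeR adjusted p = 3.1e-59), so passage 3 cells given Silvestrol were between the DMSO libraries. LIPA, the acid lipase, had log2 ratios of 1.54 and 0.84, ASAH1, the acid ceramidase, had 1.49 and 0.80, and LAMP2, a protein of the lysosomal membrane, had 1.27 and 1.07.

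Adhesion and matrix genes were less uniform. Of 26 integrins and adhesion genes, 15 were called higher and 3 lower, with medians of 0.83 and 0.57. ITGB5 had log2 ratios of 1.42 and 0.90, and ITGA6, the laminin receptor subunit, had 1.20 and 0.95. Of 34 matrix genes, 22 were called higher and 0 lower, 11 of them among 17 genes with a stretch and 11 among 17 without, with medians of 0.66 and 0.53, among them the inhibitors of metalloproteases TIMP3 (1.23 and 0.97), TIMP2 (1.16 and 0.94) and TIMP1 (1.02 and 0.66) and the collagen chain COL5A1 (1.19 and 0.92).

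Of 37 interferon-related genes 17 were called higher and 1 lower, with medians of 0.41 and 0.20 (35 genes in Silvestrol). B2M, the light chain of MHC class I molecules, had 1124 and 3164 RPKM in DMSO and 1312 and 2611 in Silvestrol, and IFI6 had log2 ratios of 1.47 and 0.60. Of 17 targets of YAP, 7 were called higher and 2 lower, and the secreted CYR61 (0.52 and 1.09) and CTGF (0.46 and 1.02) had larger ratios in Silvestrol than in DMSO. The difference between the pairs was not tested.

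Of the lists with more than 2 genes compared, the immediate early genes had the lowest median in DMSO. The median over 19 of them was −0.61 in DMSO and −0.15 in Silvestrol, 13 were called lower and 0 higher, and 0 of the 19 had a ratio above 0 in DMSO against 6 in Silvestrol. DUSP1, a phosphatase of MAP kinases, had 108 and 24.9 RPKM in DMSO and 106 and 77.0 in Silvestrol. Its edgeR log2 change was −1.35 with an adjusted p of 6.6e-26, while DESeq2 gave an adjusted p of 0.25 for it. JUNB, a subunit of AP-1, had 92.1 and 42.3 in DMSO and 95.6 and 71.6 in Silvestrol. In both genes the passage 4 DMSO library was the lowest of all 7, and the passage 4 Silvestrol library lay within or near the range of passage 3 (78.3 to 108 for DUSP1 and 52.4 to 95.6 for JUNB).

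Of 12 cytokine and NF-kB genes, 6 were called lower and 1 higher, with medians of −0.48 and −0.16. NFKBIA, the inhibitor of NF-kB, had log2 ratios of −0.97 and −0.74, IL8 had −0.80 and −0.18, and IL32 had −0.72 and −1.44. Of 38 ribosome biogenesis genes, 14 were called lower and 2 higher, with medians of −0.29 and −0.09, and RRS1 had −0.68 and −0.29. Of 35 genes of mitosis, 10 were called lower and 0 higher (medians −0.15 and −0.08), with CDCA8 at −0.77 and −0.61.

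Several lists of housekeeping functions were nearer the median of all genes. Of 19 replication-dependent histone genes, 0 have a hydrophobic stretch, yet 9 were called higher and 2 lower. Their median was −0.19 in DMSO and −0.12 over 14 genes in Silvestrol. DNA replication genes had medians of 0.03 and 0.05 over 36 genes, with 5 called higher and 4 lower, and proteasome subunits had −0.09 and −0.14 over 33 (28 in Silvestrol), with 3 called higher and 7 lower. Subunits of oxidative phosphorylation had −0.07 and −0.12 over 49 genes (46 in Silvestrol), with 7 called higher and 11 lower, and mitochondrial ribosomal proteins had −0.14 and −0.12 over 68 (66 in Silvestrol), with 4 called higher and 15 lower. Of 80 cytosolic ribosomal protein genes, 16 could be compared, with medians of −0.002 in DMSO and −0.18 over 10 genes in Silvestrol. Of the 16, 7 were called higher and 1 lower and 4 were at least 2-fold higher in DMSO, and many had short counted lengths (RPL31 24%, RPL35A 9% and RPS21 17% of the coding length).

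**Figure D5:**
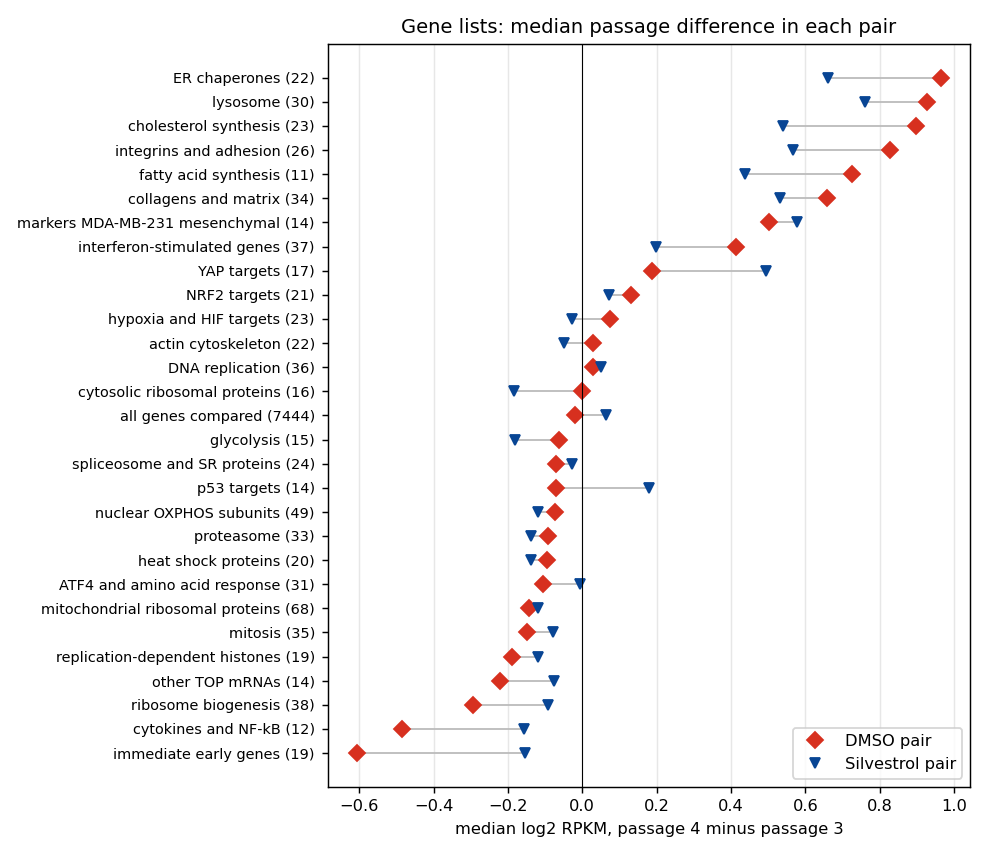
Median log2 ratio of RPKM in passage 4 over passage 3 for each gene list, in DMSO and in Silvestrol, with the number of genes compared in parentheses (lists with few genes compared are not drawn). Lists of ER, lysosome, cholesterol and fatty acid genes have medians from 0.73 to 0.97 in DMSO, and immediate early genes have −0.61 in DMSO and −0.15 in Silvestrol.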

How the data were processed

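Per the study's methods, cells were washed with cycloheximide and lysed, RNase I digestion was followed by a sucrose cushion, and Bowtie, allowed 2 mismatches and 16 alignments a read, placed the footprints on hg19 and on the canonical transcripts of UCSC KnownGene. The submitters' processing notes list CASAVA 1.8.1 and Bowtie2. The authors deposited counts of uniquely mapped reads at the P-site and RPKM values that leave out positions that are not unique or lie under more than 1 canonical transcript. Columns of the authors' own comparisons (TE, its change and a score) were not used.

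Of 38897 lines, 25758 were distinct. Where a symbol had more than 1 distinct line (546 symbols), the line with the most DMSO reads was kept. Counts of genes with at least 10 reads over the 4 libraries went into the quasi-likelihood test of edgeR 4.0.16 (R 4.3.3) after TMM scaling, with treatment and passage as terms and Benjamini-Hochberg adjustment. On simulated counts for passage 4 against passage 3 (12372 genes), 170 of 200 genes changed by 1 on the log2 scale were called, with 2 unchanged genes. RPKM ratios of 1 library over 1 library have no test. Their 95% intervals are exact (Clopper-Pearson) and cover counting error only. Coding sequences are those of GENCODE version 44 lifted to GRCh37, matched by symbol for 7394 genes. Spreadsheet dates in place of 11 symbols were left as they are. In 48 genes tested, 1 DMSO library had at least 100 reads and the other 0 (47 with the reads at passage 3), and none of these was compared by RPKM.

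The genes, lists and families were chosen with earlier results of these data known. Of the genes that the rule chose, 2 are not reported here. Genes named were the 12 most extreme a side among those 2-fold apart in the same direction in both pairs (5 existed for lower), up to 6 of each list with the largest absolute ratio in DMSO, and markers; other genes, families and the hydropathy search were chosen after values were seen. Alternatives were DESeq2 1.42.0, other scalings, read minimums, length limits, controls and libraries. Python 3.11.15 was used. The libraries of a passage share a culture, with 1 library per treatment.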

Additional observations from a re-analysis of the deposited data

Results flagged for a closer look

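In 6 genes of the lists, the passage 4 ratio had opposite signs in DMSO and in Silvestrol, each with a 95% counting interval clear of 0. The difference between the pairs was not tested, since each has 1 library per passage. The stress genes GADD45A and JUN were lower in passage 4 in DMSO and higher in Silvestrol. GADD45A had 259 and 144 RPKM at passages 3 and 4 in DMSO and 157 and 181 in Silvestrol (log2 ratio −0.85 and 0.21), and JUN had 195 and 116 in DMSO and log2 ratios of −0.75 and 0.26. COX6C, a subunit of cytochrome c oxidase, had 1147 and 1685 in DMSO and 1649 and 1484 in Silvestrol (0.56 and −0.15), and the proteasome subunit PSMA3 had log2 ratios of 0.30 and −0.13. GAPDH, a glycolytic enzyme, had 33.9 and 233 in DMSO and 223 and 127 in Silvestrol (2.78 and −0.81), with 117 and 221 reads in DMSO, and the histone chaperone NAP1L1 had 1.08 and −0.43 with 22% counted.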

How the results depend on the processing

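The count of genes called in passage 4 depended on the tool and on the treatment term. DESeq2 called 695 higher and 418 lower, all 1113 of them among the edgeR calls. Without treatment as a term 8 were called higher and 45 lower, and leaving out 1 library each gave 36 to 98 higher and 62 to 85 lower. With the counted length as an offset, added after seeing the data and fitted on the 7238 genes of both pairs, 803 were called lower, against 935 of the same genes without it. RLE scaling, other filters on low counts and the use of all 7 RF libraries kept both counts within 1.5 times. The number of genes 2-fold lower in DMSO was 46 with a minimum of 50 reads, 11 with 200 reads, 38 with no limit on counted length and, by a filter on mean CPM added after seeing the data, 40. The number 2-fold higher stayed between 268 and 486 over the alternatives, and was 337 by the filter on mean CPM. The difference in median log2 ratio between genes with and without a hydrophobic stretch was 0.37 at the cutoff used, 0.21 at 1.4 and 0.74 at 2.0. Within the 3 bins of GC content it was 0.23 to 0.50. The 17 genes that the rule chose in both pairs stayed called by DESeq2, RLE and all filters, but 13 to 17 of them were not called when 1 library was left out, and 17 were not without the treatment term. The main model already pairs the libraries by treatment, as a block, and no other pairing was possible because each treatment had 1 library per passage. Passage 4 depth, with 2621440 counted reads in Silvestrol, limits the ratios of genes with few reads, and only 1 culture per passage was sequenced.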

Other observations

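Genes of the amino acid response and of the hypoxia response were called in both directions. Of 31 genes of the amino acid response compared, 6 were called higher in passage 4 and 6 lower by edgeR (19.4% each, against 16.4% and 12.6% of all genes compared), and 9 with a hydrophobic stretch had a median log2 ratio of 0.59 in DMSO against −0.20 in 22 without one. The amino acid transporters SLC7A5 (1.46 in DMSO and 1.14 in Silvestrol) and SLC7A1 (0.82 and 0.72) were called higher, and the transcription factor CEBPB (−0.80 and −0.22) was called lower. Of 23 hypoxia genes, 6 were called higher and 7 lower, with medians of 0.47 in 8 genes with a stretch and −0.23 in 15 without, and 3 of the 6 called higher had a stretch. The differences between these medians were not tested. ERO1L, an oxidase of the ER without a stretch at the cutoff (1.08 and 0.70), and the glucose transporter SLC2A1 (0.83 and 0.70) were called higher, and NDRG1, a cytosolic protein (−0.80 and −0.61), was called lower.

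Of 14 p53 targets 1 was called higher and 3 lower (7.1% and 21.4%), and of 21 NRF2 targets 5 were called higher and 3 lower (23.8% and 14.3%). Over all genes compared the shares were 16.4% and 12.6%. Among the NRF2 targets the efflux pump ABCC1 had a log2 ratio of 0.96 in DMSO. The 9 NRF2 targets with a stretch had a median of 0.01 in DMSO and the 12 without one had 0.15. Of 15 glycolysis genes, 5 were called higher and 5 lower (33.3% each). SLC16A3, the lactate exporter of the cell surface, had 1.04 and 0.80, and ENO2, a cytosolic enolase, had −0.68 and −0.60.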
